A study of Macaca mulatta with 32 samples.

Results

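CircRNAs of 5 genes for growth factor receptor tyrosine kinases, FGFR1, FGFR2, NTRK2, NTRK3 and ERBB4, were examined in the brain of the rhesus macaque. Every circRNA that the deposited table assigns to one of these gene symbols was taken, whatever its level, which gave 63 of the 52828 circRNAs in the table and 5 of its 8047 gene symbols. CircRNAs had been sequenced in 8 regions, namely cerebellar cortex (CB), the CA1 field (CA1) and the dentate gyrus (DG, spelled Dentate Gyms in the labels) of the hippocampus, and the occipital (OC), parietal (PC), temporal (TC), prefrontal (PFC) and posterior cingulate (PCC) parts of the cerebral cortex. The 8 healthy animals were 10 or 20 years old, and for each region the RNA of 2 animals of one sex and age was mixed into 1 library, so that 4 pools (10F, 10M, 20F and 20M, for age and sex) gave 32 libraries. All libraries carried total RNA that had been depleted of poly(A) and ribosomal RNA and digested with RNase R, an enzyme that degrades linear RNA. Differences between the animals within a pool cannot be seen, and in tissue of many cell types fewer cells of a type and less RNA per cell cannot be told apart.

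Receptor tyrosine kinases sit in the cell membrane, pair up when a growth factor binds outside, and phosphorylate each other on tyrosines, to which adaptor proteins attach and pass the signal on to the Ras, PI3 kinase and phospholipase C routes. FGFR1 and FGFR2 bind fibroblast growth factors together with heparan sulfate, NTRK2 (TrkB) binds the product of BDNF, NTRK3 (TrkC) binds the product of NTF3, and ERBB4 binds neuregulins. In the brain these receptors are known for roles in neuron survival, synapse function, glial differentiation and interneuron circuits. A circRNA forms when the end of a downstream exon is joined to the start of an upstream one, and the read that crosses this back-splice junction is the only one counted here. Such reads say nothing of the level of the linear mRNA or of the receptor protein.

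The study had designed primers for 2 of the 63 circRNAs, and they are shown because each pair marks which junction was singled out by its authors as a candidate for a difference with age. That choice was made on these same libraries and is not independent evidence of a direction. Each sequence runs 5′ to 3′.
FGFR2 circRNA, chromosome 9, 121160831 to 121173235, minus strand, forward primer: gtgtggtggagaatgaatacgg
FGFR2 circRNA, chromosome 9, 121160831 to 121173235, minus strand, reverse primer: ctgggcagcgaaacttgac
NTRK2 circRNA, chromosome 15, 93475831 to 93486082, plus strand, forward primer: tggtggtgattgcgtctgt
NTRK2 circRNA, chromosome 15, 93475831 to 93486082, plus strand, reverse primer: cgtctgtggaagggatttcatt
The NTRK2 pair belongs to the circRNA that carried most reads of its gene, whereas the FGFR2 pair belongs to a minor one.

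CB_10F had the fewest back-splice reads, 18813, and PCC_20F the most, 894932. Within each library the deposited values, labelled TPM, were whole numbers of reads times a constant, and 1 read was worth between 0.288 and 18.7 TPM. By counting error a value of 0 in CB_10F thus allows at least 56.2 TPM, the worth of 3 reads there. In the other 31 libraries 3 reads were worth at most 18.05 TPM. No value under 2 reads was listed, so a 0 can hide a single read and the true limits are higher. The 16 libraries of 20 years had a median of 192168 reads and the 16 of 10 years a median of 128018. In 5 libraries (PCC_20F, PFC_20F, DG_20M, CA1_20M and PC_10M) there were 55.9 to 141 reads per circRNA found, against 8.24 to 43.7 in the other 27. Their reads numbered 273137 to 894932, against 18813 to 361224 in the other 27. In the paper these 5 also have the highest percentages of clean and of mapped reads. All but PC_10M are of 20 years. Markers of the labelled tissue were looked at through their circRNAs alone. The summed level of 19 cerebellar neuron genes, of which 10 had a circRNA, was 144 to 284 TPM in the CB libraries and 0 to 110 TPM elsewhere, but CBLN1, CBLN3 and PCP2 had no circRNA in the table.

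The 63 circRNAs held 25195 back-splice reads. Of these circRNAs, 55 were listed as exonic and 8 as intronic, and 36 (57.1%) met the read filter of the study's methods, against 32.3% of the whole table. A total of 24 were found in 1 library only, 20 rested on 10 reads or fewer, and 18 had more than 100 reads. NTRK3 had 17 circRNAs, NTRK2 16, ERBB4 14, FGFR2 12 and FGFR1 4. By number of back-splice reads NTRK2 stood at place 84 among the 8047 gene symbols with 10209 reads, NTRK3 at place 88 with 9995, FGFR2 at place 414 with 2897, ERBB4 at place 608 with 1949, and FGFR1 at place 3301 with 145.

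In 4 of the 5 genes a single circRNA carried most reads. For NTRK2 (ENSMMUG00000023117) it was chr15:93475831-93486082, plus strand, a junction spanning 10252 bases of genome, with 9033 reads or 88.5% of the gene's reads. For NTRK3 (ENSMMUG00000001386) it was chr7:67542911-67554641, minus strand, spanning 11731 bases, with 8296 reads or 83.0%. For FGFR2 (ENSMMUG00000009594) it was chr9:121160831-121187199, minus strand, spanning 26369 bases, with 2225 reads or 76.8%. The leading FGFR1 (ENSMMUG00000022478) circRNA, chr8:38917171-38917349, minus strand, spanned 179 bases and held 83 reads or 57.2%. ERBB4 (ENSMMUG00000001674) had no such dominant product, and its leading circRNA, chr12:75379967-75389431, minus strand, spanning 9465 bases, held 753 reads or 38.6%. All 5 leading circRNAs were listed as exonic, and positions are those of the table, whose genome build is not given in the sources used here.

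**Figure D1:**
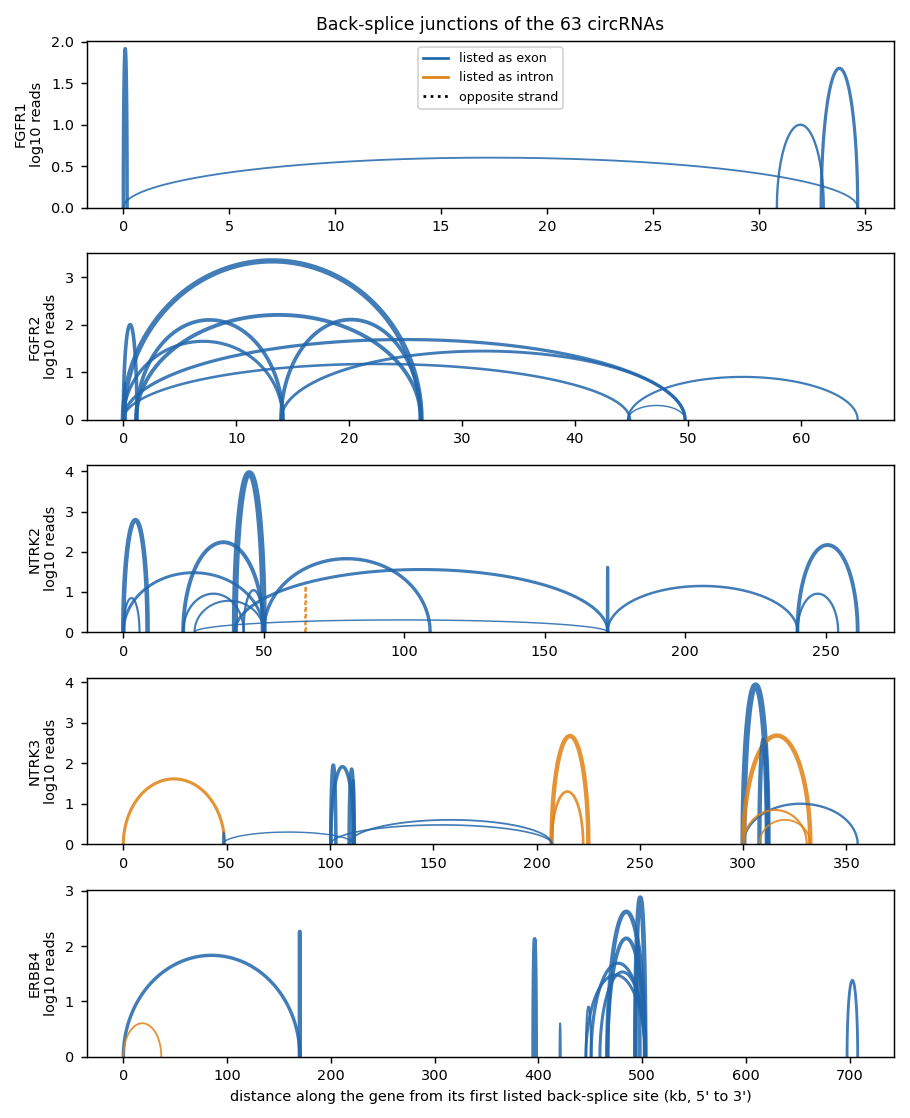
Back-splice junctions of the 63 circRNAs, 1 panel per gene. The horizontal axis is the distance in kb from the first listed back-splice site in the direction of transcription, each arc joins both ends of a circRNA and peaks at the log10 of its reads over 32 libraries, and colour marks the listed type. NTRK2 and NTRK3 each have 1 arc far above the others, whereas the ERBB4 arcs fan out from a shared downstream end.

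Several circRNAs of a gene shared one end of the junction. In ERBB4, 6 of the 14 circRNAs used the same downstream (donor) end at 75379967 with different upstream (acceptor) ends, and together they held 1423 reads or 73.0% of the gene's reads. In NTRK2, 5 circRNAs ended at the donor 93486082 with 9252 reads or 90.6%. In FGFR2, 5 circRNAs shared the acceptor 121187199 with 2435 reads and 3 shared the donor 121160831 with 2516 reads. In NTRK3, 4 circRNAs shared the acceptor 67554641 with 8793 reads or 88.0%, and 2 of the circRNAs listed as intronic began there. Of the 8 intronic circRNAs 6 belonged to NTRK3, and the largest of them were chr7:67522292-67554641 with 480 reads and chr7:67629732-67647519 with 468 reads. One intronic circRNA assigned to NTRK2, chr15:93500919-93501131, lay on the minus strand, opposite to the gene's other 15 circRNAs, and was found with 14 reads in PFC_20M alone.

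FGFR1, the fibroblast growth factor receptor of many neurons and glia, was found in the cerebellum above every other region. The summed level of its circRNAs was 225 TPM in CB_10F, 34.6 TPM in CB_10M, 31.5 TPM in CB_20F and 50.6 TPM in CB_20M, from 12, 23, 29 and 23 reads. Outside the cerebellum it was above 0 in 5 of 28 libraries, at 14.9 TPM in PC_10F, 9.93 TPM in PFC_10F, 9.49 TPM in OC_20F, 5.77 TPM in PFC_10M and 4.22 TPM in PCC_10F. Thus every CB library lay above every other library, and CB was highest in 4 of 4 pools. Of the 4902 host gene sums tested, 30 (0.612%) had all CB libraries above all others.

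The mean FGFR1 level was 85.3 ± 93.3 TPM (SD, n = 4) in CB and 1.58 ± 3.81 TPM (SD, n = 28) in the other regions. The large SD in CB came from CB_10F, in which 1 read is worth 18.7 TPM. On log2(TPM + 2.455) the CB level was higher than the mean of the other 7 regions by 4.29 (SE 0.65), with an adjusted p of 1.2e-06 by limma over 4902 host gene sums. Without CB_10F the difference was 3.67 with an adjusted p of 6.3e-05. The exact two-sided permutation test over 35960 choices of 4 libraries gave p = 2.8e-05, the smallest it can give, and an adjusted p of 0.0044. The difference held in the 11 other fits in which FGFR1 was tested, from 3.67 to 5.35, as the plot of the cerebellar difference under each setting shows.

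The FGFR1 level in CB came mainly from its leading circRNA, the short junction chr8:38917171-38917349. It stood at 187 TPM in CB_10F, 34.6 TPM in CB_10M, 21.7 TPM in CB_20F and 44.0 TPM in CB_20M, from 10, 23, 20 and 20 reads. Elsewhere it was found in PFC_10M alone, at 5.77 TPM from 10 reads, and 73 of its 83 reads were cerebellar. The 27 other libraries outside CB were at 0, where 3 reads were worth between 0.864 and 18.05 TPM per library. The limit of a 0 is higher, as a single read is not listed, and may reach the lowest cerebellar value of 21.7 TPM. The log2 difference for CB was 4.37 (SE 0.59), with an adjusted p of 7.1e-09 by limma over 17050 circRNAs. In CB_10M all 23 FGFR1 reads were of this circRNA. The circRNA met the read filter through its cerebellar reads, and without any filter it was called as well.

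A second FGFR1 circRNA, chr8:38882688-38884412, spanning 1725 bases at the other end of the listed range, had a different distribution. It stood at 37.4 TPM in CB_10F, 0 in CB_10M, 9.78 TPM in CB_20F and 6.60 TPM in CB_20M, from 2, 0, 9 and 3 reads. Outside CB it reached 12.3 TPM in PC_10F, 9.93 TPM in PFC_10F and 4.22 TPM in PCC_10F, from 19, 12 and 3 reads. The CB values thus overlapped those of the other regions. Its log2 difference for CB was 1.83 (SE 0.55) with an adjusted p of 0.047 by limma, and without CB_10F, where it rested on 2 reads, the difference was 1.17 with an adjusted p of 0.40. The remaining FGFR1 circRNAs, chr8:38884289-38886501 with 10 reads in OC_20F and chr8:38882688-38917349 with 4 reads in PC_10F, were each found in 1 library.

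Over the 36 member circRNAs that were tested, these 2 circRNAs of FGFR1 were the ones called for CB, both higher, beside 2.40% of all 17050 circRNAs called for CB in either direction and 1.86% called as higher. Only the leading FGFR1 circRNA was called without CB_10F, without the 5 libraries named above, with voom, with a pseudocount of 1 TPM, with size factors or by the exact permutation test, which called 0.798% of all circRNAs. Of the 36 differences 29 were negative, and their median was -0.24, beside a median of -0.14 over all circRNAs. At the level of host gene sums 2 of the 5 genes were called for CB, FGFR1 higher and NTRK2 lower, beside 5.24% of 4902 host gene sums called, 2.84% as higher and 2.41% as lower. At an unadjusted p under 0.05 by limma stood 5 of the 36 circRNAs, beside 9.95% of all circRNAs, and 2 of the 5 sums, beside 15.5% of all sums.

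**Figure D2:**
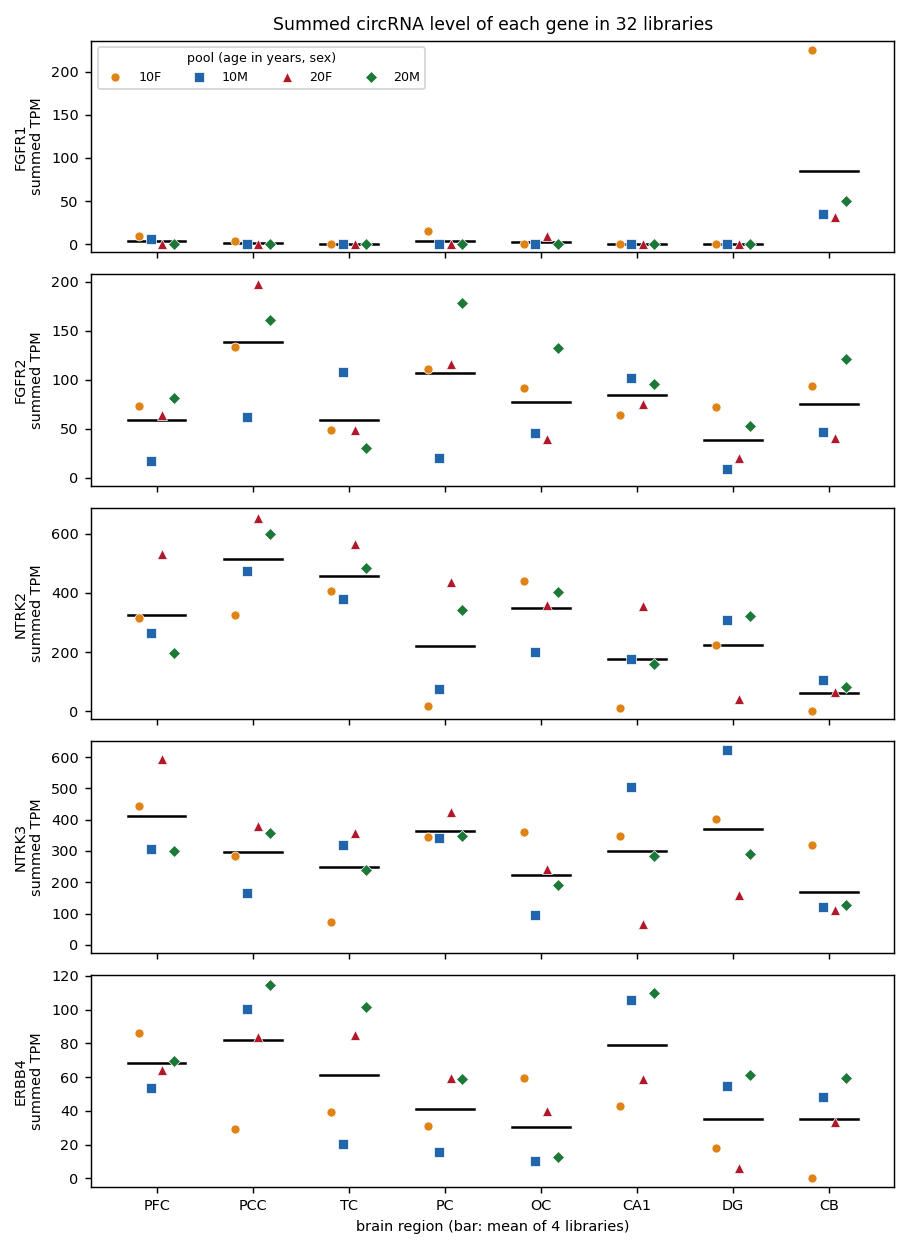
Summed circRNA level of the 5 genes in TPM (vertical axis, linear, separate scale per gene) in each of 32 libraries by brain region (horizontal axis), with colour and shape for the pool and a bar for the mean of 4 libraries. All 4 cerebellar libraries lie above the rest for FGFR1, from 31.5 to 225 TPM, and those of NTRK2 lie between 0 and 105 TPM.

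NTRK2, the receptor for brain-derived neurotrophic factor, had its lowest mean in the cerebellum. The summed level was 0 in CB_10F, 105 TPM in CB_10M, 65.2 TPM in CB_20F and 81.4 TPM in CB_20M, from 0, 70, 60 and 37 reads. In PCC, the region with the highest mean, it was 325 TPM in the 10F pool, 475 TPM in 10M, 655 TPM in 20F and 600 TPM in 20M. In TC it was 405, 381, 564 and 484 TPM in the same order of pools. All PCC and TC libraries lay above all CB libraries. PCC and TC are the regions with the highest NTRK2 means, and the share of all sums separated in this way was not counted.

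In the other cortical regions the order of the pools differed. In OC the NTRK2 level was 440 TPM in 10F, 199.8 TPM in 10M, 359 TPM in 20F and 403 TPM in 20M, and in PFC it was 314, 265, 531 and 197 TPM. In PC it was 19.4 TPM in 10F and 75.4 TPM in 10M but 438 TPM in 20F and 343 TPM in 20M. Hence PC_10F and PC_10M lay within the range of the CB libraries.

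The hippocampal regions were uneven as well. In DG the NTRK2 level was 223 TPM in 10F, 309 TPM in 10M, 41.1 TPM in 20F and 322 TPM in 20M, and in CA1 it was 12.2, 178, 356 and 158 TPM. The CA1_10F value rested on 4 reads. CB was below the mean of the other 7 regions in 4 of 4 pools and was the lowest region in 2 of 4.

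The mean NTRK2 level was 62.9 ± 45.1 TPM (SD, n = 4) in CB and 324 ± 173 TPM (SD, n = 28) in the other regions. The log2 difference for CB was -2.83 (SE 0.63), with an adjusted p of 0.0013 by limma over 4902 host gene sums, and 0.00043 with the pool as a block. The call was lost without CB_10F (log2 difference -1.55, adjusted p 0.19 by limma), where a 0 allows at least 56.2 TPM. Without the 10F, 20F or 20M pool the call was lost too (adjusted p 0.058, 0.068 and 0.10 by limma). It was also lost without the 5 libraries with most reads per circRNA (0.061), with voom (0.18) and by the exact permutation test, with p = 0.0044 and an adjusted p of 0.098. The difference was negative in every one of these fits. The leading NTRK2 circRNA itself was not called for CB, with a log2 difference of -2.46 (SE 0.86) and an adjusted p of 0.13.

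**Figure D3:**
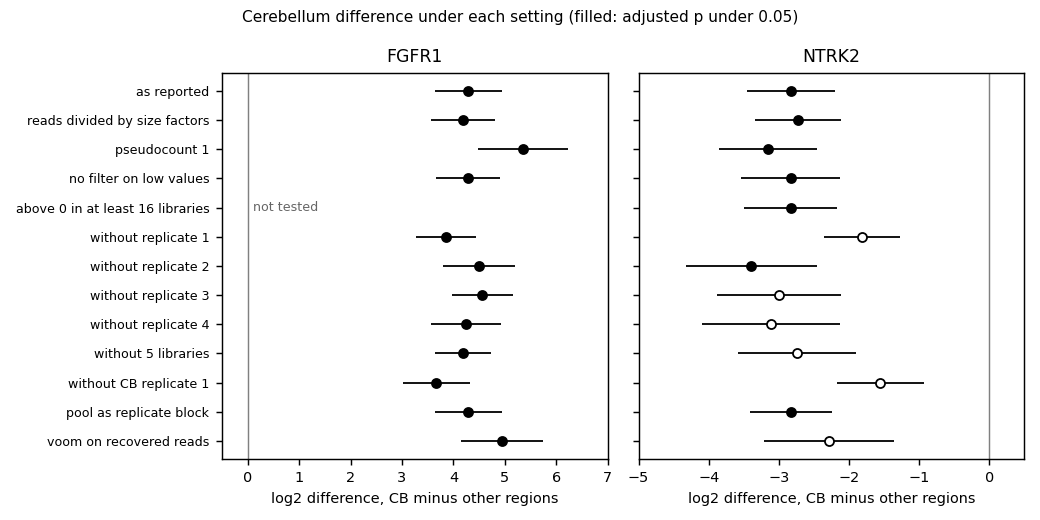
Log2 difference between CB and the other regions (horizontal axis, bars are SE) of the summed FGFR1 and NTRK2 levels in each fit (vertical axis), with filled points where the adjusted p is under 0.05. FGFR1 is filled throughout, from 3.67 to 5.35, and is not tested among genes above 0 in at least 16 libraries. NTRK2 is negative throughout, from -3.39 to -1.55, and open in 6 of the 13 fits.

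The genes of the regional markers moved with the same contrast. Of 9 tested forebrain excitatory neuron markers 4 were called lower in CB (GRM5, CUX2, CAMK2A and FOXP1), and the cerebellar neuron marker GRM4 was called higher. The summed level of all 18 forebrain excitatory neuron genes, of which 10 had a circRNA, was 76.1 to 206 TPM in CB and 136 to 1204 TPM elsewhere. That of 8 astrocyte genes was 0 in all CB libraries and 0 to 34.5 TPM elsewhere, with no circRNA listed for ALDH1L1, GJA1 or S100B. Summed oligodendrocyte markers were 0 to 9.02 TPM in CB and 0 to 91.0 TPM elsewhere, and summed interneuron markers 0 to 8.79 and 0 to 77.3 TPM. Summed markers of oligodendrocyte precursors, microglia and vessels were at most 6.52, 6.01 and 7.60 TPM in CB and at most 63.6, 47.3 and 92.6 TPM elsewhere. Medians in CB and elsewhere were 0 and 11.2 TPM for astrocytes, 6.015 and 5.075 TPM for oligodendrocytes, and 0 and 15.55 TPM for interneurons. They were 0 and 13.6 TPM for precursors, 0 and 0 TPM for microglia, and 2.255 and 10.2 TPM for vessels. No tested marker of these glial, interneuron and vessel lists was called for CB, beside 5.24% of all sums. A 0 in CB_10F allows at least 56.2 TPM. The part of all these markers in the FGFR1 and NTRK2 differences was not tested.

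NTRK3, the receptor for neurotrophin-3, was found in all 32 libraries. Its mean level was highest in PFC at 410 ± 139 TPM, followed by 369 ± 196 in DG, 365 ± 40.9 in PC, 300.8 ± 182 in CA1, 297 ± 96.8 in PCC, 248 ± 126 in TC, 223 ± 111 in OC and 169.6 ± 99.4 in CB (SD, n = 4 each). No neighbouring pair in this order differed by more than its pooled SD. In CB the level was 318 TPM in CB_10F from 17 reads, 122 TPM in CB_10M, 111 TPM in CB_20F and 128 TPM in CB_20M. CB lay below the mean of the other regions in 4 of 4 pools, yet the CB range overlapped that of every other region but PC. The overlap with PFC, PCC and DG, whose lowest values were 299, 165 and 160 TPM, came from CB_10F alone. The log2 difference of -0.86 (SE 0.47) had an adjusted p of 0.38 by limma. Within PC the 4 libraries were close, between 340 and 426 TPM.

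FGFR2, the fibroblast growth factor receptor best known in glia, was also found in all 32 libraries. Its mean level was 139 ± 57.6 TPM in PCC, 107 ± 65.4 in PC, 84.3 ± 17.7 in CA1, 77.5 ± 43.6 in OC, 75.3 ± 38.6 in CB, 58.9 ± 33.9 in TC, 58.8 ± 28.8 in PFC and 38.6 ± 29.0 in DG (SD, n = 4 each). No neighbours in the order differed by more than their pooled SD. The cerebellum was in the middle of this order, at 93.6 TPM in CB_10F, 46.6 in CB_10M, 40.2 in CB_20F and 121 in CB_20M. These values came from 5, 31, 37 and 55 reads, with none of the 5 on the leading circRNA. Its log2 difference of 0.06 (SE 0.62) had an adjusted p of 0.97, and its sign was negative with size factors, with voom, without CB_10F and on the TPM scale. In PCC, where the 4 libraries ranged from 61.9 to 198 TPM, the exact permutation test gave p = 0.0063 and an adjusted p of 0.61.

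ERBB4, the neuregulin receptor known for its place on interneurons, was found in 31 libraries. Its mean level was 82.2 ± 37.3 TPM in PCC, 79.2 ± 33.7 in CA1, 68.4 ± 13.5 in PFC, 61.5 ± 37.9 in TC, 41.2 ± 21.6 in PC, 35.3 ± 25.8 in CB, 35.1 ± 27.1 in DG and 30.6 ± 23.6 in OC (SD, n = 4 each). Again no neighbours in the order differed by more than their pooled SD. The cerebellar values were 0 in CB_10F, 48.1 TPM in CB_10M, 33.7 TPM in CB_20F and 59.4 TPM in CB_20M. The other regions ranged from 6.16 to 115 TPM, so 3 of the 4 CB values lay within their range. The 0 in CB_10F allows at least 56.2 TPM. The log2 difference for CB was -1.08 (SE 0.69) with an adjusted p of 0.50 by limma, and without the 10F pool it was -0.08 with an adjusted p of 0.97.

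For FGFR1 the order after CB was PFC at 3.92 TPM, PC at 3.73, OC at 2.37 and PCC at 1.06, while TC, CA1 and DG were at 0 in all libraries. For NTRK2 the order of means was PCC, TC, OC, PFC, DG, PC, CA1 and CB. TC and OC (458 and 350 TPM) and CA1 and CB (176 and 62.9 TPM) differed by more than their pooled SD, although their ranges overlapped. All other neighbours of NTRK2 were within it.

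No member was called for a region other than CB. At the level of host gene sums 0 of 5 were called in each of PFC, PCC, TC, PC, OC, CA1 and DG, beside 0.306%, 0.0612%, 0.224%, 0.306%, 0.0204%, 0.326% and 1.10% of all sums. At the level of circRNAs 0 of 36 were called in these regions, beside 0.211%, 0.111%, 0.170%, 0.563%, 0.0235%, 0.158% and 0.158% of all circRNAs. At an unadjusted p under 0.05 by limma stood, in the same order of regions, 4, 6, 3, 2, 2, 1 and 0 of the 36 circRNAs, beside 8.04%, 9.27%, 5.15%, 10.2%, 3.62%, 8.82% and 5.70% of all circRNAs. Of the 5 sums, 0, 1, 1, 0, 0, 0 and 0 did so, beside 7.20%, 6.96%, 6.67%, 8.59%, 3.69%, 6.87% and 9.47% of all sums. The exact permutation test called 0 members in these regions as well at an adjusted p under 0.05. The smallest adjusted p among the sums was that of FGFR2 in DG, 0.53, with a log2 difference of -1.23 (SE 0.62) and an unadjusted p of 0.0502. NTRK2 in PCC had the smallest unadjusted p, 0.016, with a log2 difference of 1.55 (SE 0.63), an adjusted p of 0.60 and an exact permutation p of 0.0060.

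**Figure D4:**
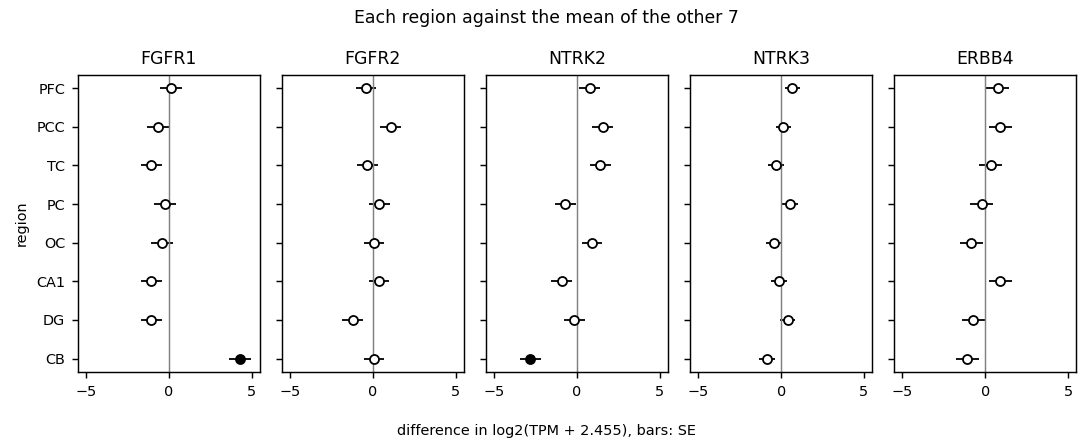
Difference in log2(TPM + 2.455) between each region and the mean of the other 7 (horizontal axis, bars are SE) for the 5 host gene sums, with regions on the vertical axis and filled points for an adjusted p under 0.05. Filled points are FGFR1 in CB at 4.29 and NTRK2 in CB at -2.83.

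The 20-year and 10-year libraries were compared next, 16 against 16 from 4 pools, with region and sex in the fit. None of the 5 sums and none of the 36 circRNAs was called, beside 0.0204% of all sums and 0.00587% of all circRNAs. At an unadjusted p under 0.05 by limma stood 1 of the 5 sums, beside 6.39% of all sums, and 3 of the 36 circRNAs, beside 4.55% of all circRNAs, each of them higher at 20 years. The unpaired test on TPM named in the study's methods, 16 against 16 libraries, called 0 members at an adjusted p under 0.05. At an unadjusted p under 0.05, the threshold of those methods, it passed 0 of the 5 sums, beside 4.88% of all sums, and 1 of the 36 circRNAs, beside 2.97% of all circRNAs. That circRNA was the leading one of NTRK2, at 306 ± 182 TPM (SD, n = 16) at 20 years and 185 ± 141 TPM (SD, n = 16) at 10 years, with an unadjusted p of 0.044 and an adjusted p of 0.70. The 25 positive and 11 negative differences of the 36 circRNAs had a median of 0.20, beside 0.08 over all circRNAs. Libraries of a pool share their animals, so p-values over 16 libraries do not describe spread between animals. The same holds for the pairs of region and sex counted below. How often other sums show such pair counts was not determined.

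NTRK2 had the smallest p of the sums. Its summed level ranged from 0 through a median of 244 to 475 TPM at 10 years and from 41.1 through 357 to 655 TPM at 20 years. The level was higher at 20 years in 11 of 16 pairs of the same region and sex, 6 of 8 in females and 5 of 8 in males. The ranges overlapped, and the log2 difference of 1.02 (SE 0.39) had an unadjusted p of 0.012 and an adjusted p of 0.70 by limma. Its leading circRNA, the one with primers, ranged from 0 through 214 to 381 TPM at 10 years and from 0 through 322 to 600 TPM at 20 years. It was at 0 in 4 libraries of 10 years (PC_10F, CA1_10F, CA1_10M and CB_10F) and in 1 of 20 years (DG_20F). Its log2 difference was 1.49 (SE 0.55), with an unadjusted p of 0.0073 and an adjusted p of 0.80.

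The FGFR2 circRNA with primers, chr9:121160831-121173235, held 129 reads in 15 libraries. It was found in 10 of 16 libraries of 20 years, at up to 14.5 TPM, and in 5 of 16 of 10 years, at up to 37.4 TPM. The highest value was CB_10F, where it rested on 2 reads. Its log2 difference for age was 0.68 (SE 0.47), with an unadjusted p of 0.15 and an adjusted p of 0.80 by limma.

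ERBB4 ranged from 0 through a median of 40.9 to 106 TPM at 10 years and from 6.16 through 60.5 to 115 TPM at 20 years. It was higher at 20 years in 13 of 16 pairs, 8 of 8 in males and 5 of 8 in females. The 8 pairs of a sex compare the same pools of animals, so they are not 8 replicates. The log2 difference was 0.67 (SE 0.45), with an adjusted p of 0.81. FGFR2 was higher in 9 of 16 pairs, 6 of 8 in males and 3 of 8 in females, and NTRK3 in 8 of 16. Their log2 differences were 0.40 (SE 0.41) and -0.16 (SE 0.31), with adjusted p of 0.88 and 0.95. FGFR1, at 0 in most libraries, was higher in 2 pairs and lower in 5, with a log2 difference of -0.52 (SE 0.43) and an adjusted p of 0.83.

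Males and females were compared in the same fit, and none of the 5 sums was called. The log2 differences of males minus females were 0.66 for NTRK2, 0.49 for ERBB4, -0.57 for FGFR1, -0.22 for FGFR2 and -0.04 for NTRK3, with SE between 0.31 and 0.45 and adjusted p between 0.81 and 0.99. None of the 36 circRNAs was called, beside 0.0176% of all circRNAs and 0% of all sums, and 1 circRNA and 0 sums had an unadjusted p under 0.05 by limma, beside 4.68% of all circRNAs and 6.43% of all sums. The unpaired test called 0 members at an adjusted p under 0.05. At an unadjusted p under 0.05 it passed 0 of the 5 sums, beside 4.22% of all sums, and 1 of the 36 circRNAs, beside 2.94% of all circRNAs, namely the leading one of ERBB4, at 32.7 ± 21.1 TPM (SD, n = 16) in males and 19.4 ± 13.2 TPM (SD, n = 16) in females, with an unadjusted p of 0.042 and an adjusted p of 0.70. The age difference was also compared between the sexes by an interaction term, which called 0 of 5 sums and 0 of 36 circRNAs, beside 0.0816% of all sums and 0.0645% of all circRNAs. At an unadjusted p under 0.05 by limma stood 1 sum and 1 circRNA, beside 6.06% of all sums and 4.75% of all circRNAs. FGFR2 had the smallest p there, with an age difference larger by 1.64 (SE 0.80) on the log2 scale in males, an unadjusted p of 0.044 and an adjusted p of 0.81.

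Which circRNA of a gene carried its reads was examined as the share of the leading circRNA in libraries with at least 10 reads of the gene. For ERBB4 the share was 69.9 ± 22.9% (SD, n = 13) at 10 years and 37.7 ± 25.4% (SD, n = 15) at 20 years. The range was 31.7 to 100% at 10 years and 0 to 81.4% at 20 years, and the shares averaged 69.2% in 10F, 70.5% in 10M, 25.4% in 20F and 48.4% in 20M. The permutation test of 100000 draws gave p = 0.0020 and an adjusted p of 0.25 over 999 host genes, of which 0 (0%) were called and 62 (6.21%) had an unadjusted p under 0.05. The ERBB4 difference therefore did not pass. ERBB4 reads per library were also unequal, with a median of 29 at 10 years and 70 at 20 years, and the median number of ERBB4 circRNAs found was 2 and 4. The part of depth in this share was not tested.

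The FGFR2 share was 84.3 ± 17.6% (SD, n = 14) at 10 years and 64.0 ± 24.9% (SD, n = 16) at 20 years. The permutation test gave p = 0.014 and an adjusted p of 0.69. FGFR2 reads per library had a median of 31 at 10 years and 57.5 at 20 years, and the median number of circRNAs found was 2 and 3.5. The NTRK3 share went from 73.9 ± 23.96% to 86.1 ± 5.91% (SD, n = 16 each), with p = 0.030 and an adjusted p of 0.69 by the permutation test. The NTRK2 share went from 72.9 ± 32.5% (SD, n = 14) to 81.8 ± 24.7% (SD, n = 16), with p = 0.40 and an adjusted p of 0.99 by the same test. Neither passed after adjustment. ERBB4, FGFR2 and NTRK3 had an unadjusted p under 0.05 for age, beside 6.21% of host genes. The part of depth in these shares was not tested. Between CB and the other regions 0 of 955 host genes (0%) had a called share and 71 (7.43%) an unadjusted p under 0.05. The CB share of ERBB4 was 32.03 ± 29.4% (SD, n = 3) against 55.1 ± 28.4% (SD, n = 25) elsewhere, with an adjusted p of 0.85 by the permutation test. The shares of NTRK2 were 72.6 ± 21.8% (SD, n = 3) and 78.2 ± 29.4% (SD, n = 27), those of NTRK3 80.7 ± 18.7% (SD, n = 4) and 79.9 ± 18.5% (SD, n = 28), and those of FGFR2 75.004 ± 25.7% (SD, n = 3) and 73.3 ± 24.1% (SD, n = 27). FGFR1 had too few libraries with 10 reads for either test.

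**Figure D5:**
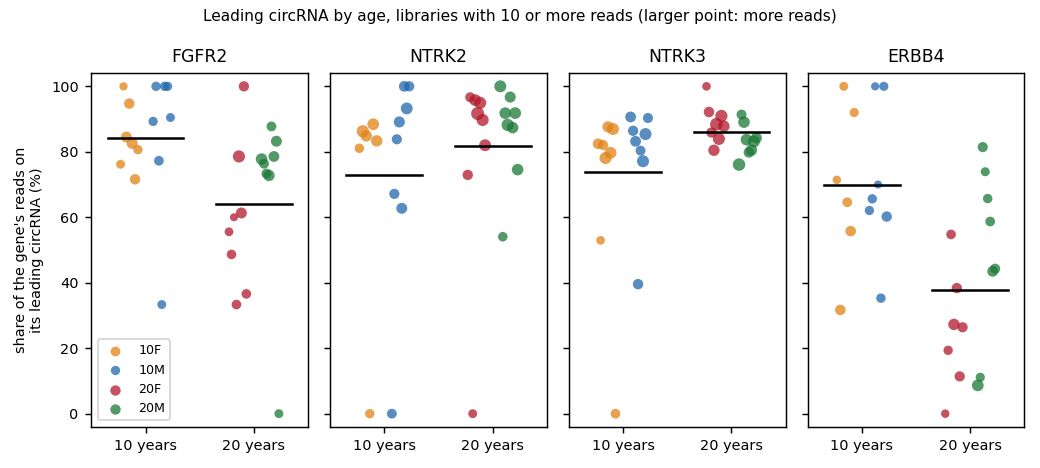
Share of a gene's back-splice reads on its leading circRNA in percent (vertical axis) at 10 and 20 years (horizontal axis), 1 point per library with at least 10 reads of the gene, coloured by pool and larger with more reads, and a bar for the mean. The ERBB4 mean is 69.9% at 10 and 37.7% at 20 years with overlapping points, and single libraries of each gene lie at 0%.

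In single libraries no read of the leading circRNA was found although other circRNAs of the same gene were read. In CA1_10M all 49 listed NTRK2 reads fell on chr15:93436115-93444741. The limit that 0 of 49 allows for the share of the leading circRNA is 6.12%, and more if a single read went unlisted. In PC_10F 26 of 30 NTRK2 reads fell on chr15:93436115-93486082, and in DG_20F all 20 fell on chr15:93436115-93444741. The leading NTRK2 circRNA stood at 0 to 260 TPM in the other CA1 libraries. It was at 75.4 to 416 TPM in the other PC and 180 to 295 TPM in the other DG libraries. In TC_10F 38 of 47 NTRK3 reads fell on chr7:67542911-67546911, which shares the donor of the leading circRNA, and the leading one was at 0, against 201 to 315 TPM in the other TC libraries. In TC_20M all 21 FGFR2 reads fell on chr9:121160831-121186065, against 17.7 to 97.8 TPM of the leading circRNA in the other TC libraries. In CA1_20F 10 of 14 ERBB4 reads fell on chr12:75712633-75712819. A 0 there allows at least 12.6 TPM of the leading circRNA, against 9.51 to 65.5 TPM in the other CA1 libraries.

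The genes around these receptors were described from 4 lists. Over all host gene sums 5.24% were called for CB, 0.0204% for age and 0% for sex. At an unadjusted p under 0.05 by limma stood 15.5%, 6.39% and 6.43% of all sums. Of 40 other receptor tyrosine kinases, 17 had a circRNA and 9 were tested, and 0 were called for CB, age or sex, with 2, 1 and 0 at an unadjusted p under 0.05 by limma. Their median difference for CB was -0.54, beside -0.07 over all sums. FLT3 had the smallest p for CB, at 24 ± 24.1 TPM (SD, n = 4) against 5.06 ± 14.1 TPM (SD, n = 28). FGFR3 and FGFR4 had no circRNA in the table. Of 30 ligands 6 had a circRNA, among them NRG1, NRG2, NRG3 and NRG4, the neuregulins that ERBB4 binds, whereas BDNF, NTF3 and NTF4 had none. Of 5 ligands tested 0 were called for CB, age or sex, with 2, 1 and 0 at an unadjusted p under 0.05.

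Of 25 co-receptors and membrane partners 15 had a circRNA and 7 were tested, and 0 were called for CB, age or sex, with 1, 0 and 1 at an unadjusted p under 0.05. Of 52 adaptors and early signalling genes 38 had a circRNA and 30 were tested. For CB 1 of the 30 was called, beside 5.24% of all sums, and 3 had an unadjusted p under 0.05 by limma, beside 15.5%. The called gene was PIK3R3, a regulatory subunit of PI3 kinase, at 499.96 ± 108 TPM (SD, n = 4) against 47.5 ± 42.1 TPM (SD, n = 28). Its log2 difference was 4.09 (SE 0.77) with an adjusted p of 9.2e-05 by limma. None of the 30 was called for age or sex, with 3 and 1 at an unadjusted p under 0.05. In DG 1 of the 7 membrane partners and 1 of the 30 adaptor genes were called, both lower, beside 1.10% of all sums. At an unadjusted p under 0.05 by limma stood 1 and 5 of them there, beside 9.47% of all sums.

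The host genes with the most similar pattern were sought by Spearman's rho over 32 libraries among 1444 genes above 0 in at least 24 libraries. For NTRK3 these were ANK2, GON4L and PIK3C3 with rho of 0.71, 0.70 and 0.70, and for NTRK2 CUX2, an unnamed gene (ENSMMUG00000000884) and DGKI with 0.66, 0.63 and 0.61. For ERBB4 they were ASCC3, RILPL1 and PPM1H with 0.62, 0.58 and 0.57, and for FGFR2 CLASP1, RIC8B and ZSCAN26 with 0.62, 0.61 and 0.60. For FGFR1, which was at 0 in 23 libraries, they were BIRC6, PIK3R3 and SNX1 with 0.58, 0.56 and 0.56. Among the 5 genes the highest rho was 0.49, between NTRK2 and ERBB4, and the lowest -0.47, between FGFR1 and NTRK2. These values are a description, since all genes share the libraries and their depth.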

How the data were processed

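The authors removed adaptors with cutadapt, aligned reads with BWA and called circRNAs with CIRI2, keeping those with at least 2 back-splice reads. The values deposited by the authors are labelled TPM. They are not scaled by length, and their divisor is not given in the sources used here, although the methods name DESeq size factors. All 197702 values above 0 were whole numbers of reads within 0.1 read. Members, gene lists and tests were chosen with earlier results of these data known.

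The circRNAs of a gene were summed over the table. Expression was tested with limma 3.58.1 in R 4.3.3 on log2(TPM + 2.455), where the pseudocount of 2.455 is the lowest nonzero TPM of a library, as the median of 32, for 17050 circRNAs that met the read filter of the study's methods (at least 3 reads in 2 or more libraries of each of 2 or more regions, or of 1 region with 6 or more such libraries in all, or at least 30 reads in total) and for the 4902 host gene sums. A region was set against the mean of the other 7. Age and sex were fitted with region and the other factor. P-values were adjusted by Benjamini-Hochberg over all features, with 0.05 as the threshold. Exact permutation tests took all 35960 choices of 4 of 32 libraries. Tests were tried on simulated data beforehand. Tables were handled with pandas 2.3.3 and NumPy 2.4.6 under Python 3.11.15, permutation tests used SciPy 1.17.1 and plots Matplotlib 3.10.9.

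Described by library are the leading circRNA of each gene, those with primers and those called by limma. Of each pathway list, genes could be named up to the 3 with the smallest p per comparison, and likeness was given for the 3 closest genes. Pools pair the libraries across regions because they hold the same animals. Deviations from region means correlated with a median of 0.03 within a pool (112 pairs, from -0.02 to 0.07) and -0.01 between pools (336 pairs). All 5 gene IDs matched their symbols in the supplied name table. Intervals and limits cover counting error only, and reads without molecular identifiers are not independent molecules. The libraries of a region are separate pools of animals, but p-values over libraries of one pool measure spread between samples of the same animals.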

Additional observations from a re-analysis of the deposited data

Results flagged for a closer look

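In each region the 4 libraries of every summed level were checked for a value far from the other 3, relative to the whole range. Of 40 such groups 6 had one. Chance gives about 1 in 20 for normally spread values, a rate that does not apply to the 3 FGFR1 groups outside CB, in which the other 3 libraries were at 0 and any value above 0 would have stood apart. FGFR1 stood at 225 TPM in CB_10F, from 12 reads, against 31.5 to 50.6 TPM in the other CB libraries. NTRK3 stood at 318 TPM in CB_10F, from 17 reads, against 111 to 128 TPM. Both lie in the library with the fewest reads. NTRK3 reached 426 TPM in PC_20F, against 340 to 347 TPM in the other PC libraries. FGFR1 was at 14.9 TPM in PC_10F (23 reads), 9.49 TPM in OC_20F (10 reads) and 4.22 TPM in PCC_10F (3 reads), with the other 3 libraries of each region at 0. In OC_20F these reads came from chr8:38884289-38886501, which was found nowhere else.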

How the results depend on the processing

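Over the alternatives listed, FGFR1 remained called as higher in CB in all 12 that tested it, and the counts of members called for other regions, age and sex were 0 in all. The count of member circRNAs called for CB, 2 as reported, was 1 with size factors, a pseudocount of 1, voom, the exact permutation test, without the 5 libraries or without CB_10F (an alternative chosen after seeing the data), 0 among circRNAs above 0 in at least 16 libraries, where FGFR1 is not tested, and 1 to 2 without each pool. The NTRK2 difference for CB was -2.74 without the 5 libraries, -2.29 with voom and -261 TPM in the exact permutation test, all no longer called, and -3.39 to -1.81 without each pool and -1.55 without CB_10F. For FGFR2 in CB it was -0.030 with size factors, -0.37 with voom, -5.14 TPM on the TPM scale, -0.06 to 0.30 without each pool and -0.088 without CB_10F. For age, FGFR2 ranged from -0.42 to 1.22 without each pool and NTRK3 was 0.060 with voom. For sex, FGFR2 ranged from -1.03 to 0.60 and NTRK3 from -0.17 to 0.10 without each pool, NTRK3 was 0.084 without the 5 libraries, and NTRK2 was -0.080 with voom and -10.6 TPM on the TPM scale. For the leading circRNAs, FGFR2 in CB ranged from -1.71 to 0.19 and for age from -0.32 to 0.72 without each pool and was -0.17 for age without the 5 libraries, NTRK3 for age was -14.0 TPM on the TPM scale, and chr8:38882688-38884412 for age ranged from -1.01 to 0.24 without each pool. The difference in share for CB was -17.1 points for FGFR2 with at least 5 reads, and without each pool -8.40 to 10.5 points for FGFR2, -18.6 to 7.91 for NTRK2 and -1.92 to 7.09 for NTRK3. The cause of these changes was not tested. With voom the median of all host gene sums shifted by 0.53 for CB and -0.30 for age. 

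The pool as a replicate block changed no call: the FGFR1 and NTRK2 differences for CB stayed at 4.29 and -2.83, and 2 member circRNAs were called. The planned edgeR test on recovered reads was not run, and limma with voom on those reads took its place.

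Few reads limit FGFR1, with 145 reads in all, and every CB value of CB_10F, with 18813 reads.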
